A study of Homo sapiens with 18 samples.

Results

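Interferon-stimulated genes are the genes that cells switch on when an interferon reaches them, and 49 of them, listed by symbol and with MHC genes left out, were followed here in THESC cells. THESC is a widely used line of stromal cells from human endometrium, immortalised with telomerase. The 49 symbols name type I interferon-stimulated genes together with the STAT and IRF factors that regulate them, and each was found once among the 78724 genes of the count table. Of the 49, 44 had counts high enough to be tested among 15558 genes in all.

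The 3 lines compared were each engineered with CRISPR guides. U1U2 cells carry guides named U1U2 and are labelled as having equivalent amounts of PGRA and PGRB, the isoforms of the progesterone receptor gene PGR. Promoter cells carry a promoter guide and are labelled PGRB-dominant. NT cells carry a non-targeting guide and are labelled WT. All 3 lines were kept in blasticidin, passed through low serum, and were then held for 72 hours in charcoal-stripped serum with either 1 µM medroxyprogesterone acetate (MPA), a synthetic progestin, or 0.01% ethanol as vehicle. There are 18 libraries, 3 for each of the 6 groups, and the labels name a single batch. The labels do not say whether a line is 1 clone or a pool, so the guide and the line cannot be told apart. They do not say either whether libraries of a group came from separate cultures, so p-values measure the spread between these libraries, which may be technical.

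Type I interferons bind a receptor made of IFNAR1 and IFNAR2, which activates the kinases JAK1 and TYK2. These phosphorylate STAT proteins, and STAT2 with a STAT partner and IRF9 forms ISGF3, a complex that binds the interferon-stimulated response element (ISRE) in front of its target genes. The products bind viral RNA, degrade RNA, block translation or restrict viral entry, and low levels of many of them persist in cells without added interferon. In the endometrium, interferon-stimulated genes are known to change through the cycle and in early pregnancy, and progestins are known to limit inflammatory gene expression in stromal cells.

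The sequences in front of 5 members are shown because they hold, or lack, the ISRE core and belong to genes whose measurements differ. IFIT1 and IFIT3 were lower with MPA in all 3 lines, IFIT5 lies in the same gene cluster and was called in none, IFI44L was higher with MPA in promoter cells, and STAT2 encodes a subunit of ISGF3 itself. Each run is the 250 bases before a RefSeq transcription start on GRCh38.p14, written 5′ to 3′ on the strand of the gene, and capitals mark the ISRE core on either strand (GAAA, NN and GAAA in a row, read as TTTC, NN and TTTC when it lies on the other strand). IFIT3 has a pair of annotated starts.
IFIT1, chr10:89392373-89392622, plus strand: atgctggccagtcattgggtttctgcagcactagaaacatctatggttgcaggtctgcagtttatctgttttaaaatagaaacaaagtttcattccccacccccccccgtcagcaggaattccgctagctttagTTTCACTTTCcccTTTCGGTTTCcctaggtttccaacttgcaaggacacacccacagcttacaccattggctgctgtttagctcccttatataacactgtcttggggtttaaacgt
IFIT3, chr10:89327747-89327996, plus strand: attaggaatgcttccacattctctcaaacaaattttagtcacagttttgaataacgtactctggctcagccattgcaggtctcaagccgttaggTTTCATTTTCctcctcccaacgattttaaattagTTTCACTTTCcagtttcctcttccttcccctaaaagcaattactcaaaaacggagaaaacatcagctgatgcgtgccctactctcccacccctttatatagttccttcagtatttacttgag
IFIT3, chr10:89332279-89332528, plus strand: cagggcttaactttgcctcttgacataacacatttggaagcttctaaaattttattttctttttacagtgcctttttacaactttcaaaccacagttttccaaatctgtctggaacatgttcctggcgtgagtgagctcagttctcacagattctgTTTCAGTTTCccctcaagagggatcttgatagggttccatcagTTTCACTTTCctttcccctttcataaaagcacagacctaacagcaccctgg
IFIT5, chr10:89414318-89414567, plus strand: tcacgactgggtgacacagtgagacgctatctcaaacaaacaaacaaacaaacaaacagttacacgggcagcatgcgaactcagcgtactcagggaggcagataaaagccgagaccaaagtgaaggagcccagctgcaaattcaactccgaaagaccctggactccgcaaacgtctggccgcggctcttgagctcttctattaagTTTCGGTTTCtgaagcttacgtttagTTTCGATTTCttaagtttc
IFI44L, chr1:78620198-78620447, plus strand: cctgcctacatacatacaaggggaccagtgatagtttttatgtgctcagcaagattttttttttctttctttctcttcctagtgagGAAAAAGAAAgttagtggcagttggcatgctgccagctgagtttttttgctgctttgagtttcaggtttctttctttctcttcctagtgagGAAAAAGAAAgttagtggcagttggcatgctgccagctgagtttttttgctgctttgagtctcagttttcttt
STAT2, chr12:56360108-56360357, minus strand: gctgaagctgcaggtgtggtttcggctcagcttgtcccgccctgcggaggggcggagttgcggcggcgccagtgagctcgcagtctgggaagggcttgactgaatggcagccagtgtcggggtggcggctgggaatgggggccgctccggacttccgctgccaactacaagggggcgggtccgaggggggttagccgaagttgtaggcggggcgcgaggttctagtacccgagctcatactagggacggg

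The IFIT1 window held its cores beginning 116 and 103 bases before the start, with 3 bases between them. The IFIT3 windows held theirs at 156 and 122 bases before the first start and at 94 and 51 bases before the second. The IFIT5 window held a pair as well, at 45 and 19 bases, and the IFI44L window held a pair at 164 and 73 bases inside a repeated stretch. No core was found in the STAT2 window, which says only that these letters are absent from those 250 bases. Among all members, 40 of 49 had a window, and 24 of these 40 held at least 1 ISRE core. Counted by window, the core stood in 28 of 55 windows of members (50.9%) and in 3.02% of all 35116 windows. The core of the gamma-activated site (TTC, NNN and GAA in a row) stood in 12 of 55 member windows (21.8%) and in 6.57% of all windows. By response to MPA, the ISRE core was in a window of 11 of 20 members called in no line, 8 of 12 members that fell in 1 or 2 lines, 2 of 2 that fell in all 3 and 1 of 3 that rose. The gamma-activated core was in a window of 9 of 20, 1 of 12, 0 of 2 and 1 of 3 members of the same classes. These counts cover only members with a window, and IFIT2 and GBP2, which also fell in all 3 lines, had none.

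Levels in vehicle spanned a wide range. Per kilobase of exon, in CPM (counts scaled to library size with TMM factors), IFIT3 stood highest in vehicle-treated NT cells at 62.7 CPM per kb, followed by GBP1, a guanylate-binding GTPase, at 57.0 and STAT2 at 40.5. IFIT1 (30.7), IFIT5 (29.5) and IFIT2 (27.7 CPM per kb) stood close together. MX1, a dynamin-like antiviral GTPase, stood at 0.722 CPM per kb and ISG15, a ubiquitin-like protein attached to other proteins, at 0.243. The 5 members that could not be tested were IRF7 with 0 to 7 counts per library, OASL with 0 to 10, IFITM3 with 0 to 3, RSAD2 with 0 to 9 and CMPK2 with 1 to 19. ISG15 and IFITM3 are short, with 941 and 1348 bases of exon, and whether the counting or the library preparation lowers the counts of such genes was not tested. The summed level of the 49 members was 2831 to 3620 CPM per library, 0.277% to 0.366% of all counts. IFITM1, IFITM2 and IFITM3 are near-identical neighbours on chromosome 11, and 27 of the 49 members are overlapped by another annotated gene. The values of these members are uncertain to the extent that shared reads were split or dropped.

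Library totals ran between 11932474 and 33418643 counts, and mitochondrial genes took 1.63% to 3.03% of them. PGR stood at 226 to 291 CPM in MPA-treated and at 531 to 674 CPM in vehicle-treated U1U2 cells. In promoter cells it stood at 264 to 303 CPM with MPA and 395 to 475 CPM with vehicle, and in NT cells at 76.2 to 95.1 CPM with MPA and 120 to 153 CPM with vehicle. Both engineered lines thus held more PGR than NT cells in either condition, and PGR was lower with MPA in each line. Gene counts do not tell PGRA from PGRB. Stromal markers were abundant, such as VIM with 20942 to 50164 counts per library, but 3 of the 8 moved with MPA. HAND2 and COL1A1 rose in promoter (log2 fold changes 1.83 and 0.88) and U1U2 cells (1.297 and 0.84). DCN fell in U1U2 (-0.57) and NT cells (-0.70). In promoter cells DCN was not called (-0.37, edgeR adjusted p = 0.051), though all MPA-treated libraries lay below all vehicle-treated ones. Of 8 leukocyte markers, CD3D and CD3E were at 0 in every library, 5 others had at most 5 counts, and PTPRC had 33 to 143. The summed leukocyte markers, nearly all PTPRC, moved with the treatment at 1.96 to 2.40 CPM with MPA against 4.17 to 4.64 CPM with vehicle in promoter cells. The same sum was 1.64 to 2.01 against 3.62 to 4.24 CPM in U1U2 cells and 1.90 to 2.41 against 4.35 to 5.62 CPM in NT cells. Of 5 endothelial markers, PECAM1, CDH5, VWF and KDR had at most 11 counts and TEK had 673 to 2675. The summed endothelial level, nearly all TEK, was 42.3 to 43.4 CPM with MPA against 72.6 to 74.9 CPM with vehicle in promoter cells, 45.4 to 50.6 against 66.8 to 74.6 CPM in U1U2 cells and 44.1 to 46.4 against 55.2 to 59.0 CPM in NT cells. TEK fell in all 3 lines, by log2 fold changes of -0.78 in promoter, -0.54 in U1U2 and -0.35 in NT cells. Of 6 epithelial markers, KRT19 had 142 to 1134 counts, EPCAM 3 to 34 and the other 4 at most 12. Their sum was 10.4 to 17.0 CPM with MPA against 21.6 to 32.9 CPM with vehicle in promoter cells, 8.11 to 20.2 against 18.9 to 28.1 CPM in U1U2 cells and 9.01 to 14.4 against 16.1 to 26.7 CPM in NT cells. KRT19 (-1.19) and EPCAM (-1.38) fell in promoter cells. They were not called in U1U2 (-0.70 and -0.86) or NT cells (-0.78 and -1.29). The part of these markers in the results on members was not tested. In bulk RNA, fewer cells expressing a gene and less of its RNA per cell cannot be told apart.

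With MPA, a group of interferon-stimulated genes fell, with IFIT1, IFIT2, IFIT3 and GBP2 called in every line. More members were called in the engineered lines than in NT cells, but so were more of all tested genes. Those shares were 11.7% in U1U2, 15.0% in promoter and 5.93% in NT cells. Vehicle-treated NT libraries held 11932474 to 20819640 counts, against 21445489 to 31325478 in U1U2 and 16806173 to 33418643 in promoter cells. How far library size set the number of calls was not tested. In U1U2 cells 15 of 44 tested members fell (34.1%), where 6.22% of all tested genes fell, and 0 members rose, where 5.44% of all genes rose. In promoter cells 9 members fell (20.5%, against 8.40% of all genes) and 3 rose (6.82%, against 6.63%). In NT cells 5 members fell (11.4%, against 3.48% of all genes) and 0 rose, against 2.44%. These calls are from edgeR's quasi-likelihood test fitted on all 18 libraries, at an adjusted p under 0.05 over all tested genes. At an unadjusted p under 0.05 the counts in either direction were 20, 17 and 12 members in U1U2, promoter and NT cells, where 23.2%, 26.8% and 16.9% of all genes passed. DESeq2 called 16, 13 and 5 members, where it called 12.6%, 16.0% and 6.69% of all genes. It added no member in the upward direction in any line. Counting instead the members whose libraries did not overlap between treatments, U1U2 cells had 20 lower and 0 higher (12.3% and 11.5% of all genes), promoter cells 14 lower and 7 higher (18.1% and 17.6%), and NT cells 10 lower and 3 higher (9.78% and 9.49%).

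The median log2 fold change of the 44 members was -0.29 in U1U2 cells, -0.17 in promoter cells and -0.12 in NT cells, where the medians over all genes were 0.03, -0.00 and 0.02. In all, 17 members fell in at least 1 line, as 10.7% of all genes did, and 4 fell in all 3, as 2.24% of all genes did. A further 4, STAT2, OAS2, OAS3 and TRIM25, were called lower in U1U2 and promoter cells and not in NT cells (9.09% of the 44, against 2.44% of all genes), and 24 tested members were called in no line (54.5%, against 80.9% of all genes). The fold change was negative in all 3 lines for 22 of the 44 (50.0%), which holds for 19.7% of all tested genes. The summed member level was 2831 to 2956 CPM with MPA against 3407 to 3620 CPM with vehicle in U1U2 cells. It was 2921 to 3040 against 3358 to 3420 CPM in promoter cells and 3065 to 3092 against 3278 to 3613 CPM in NT cells, so the libraries of the 2 treatments did not overlap in any line.

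**Figure D1:**
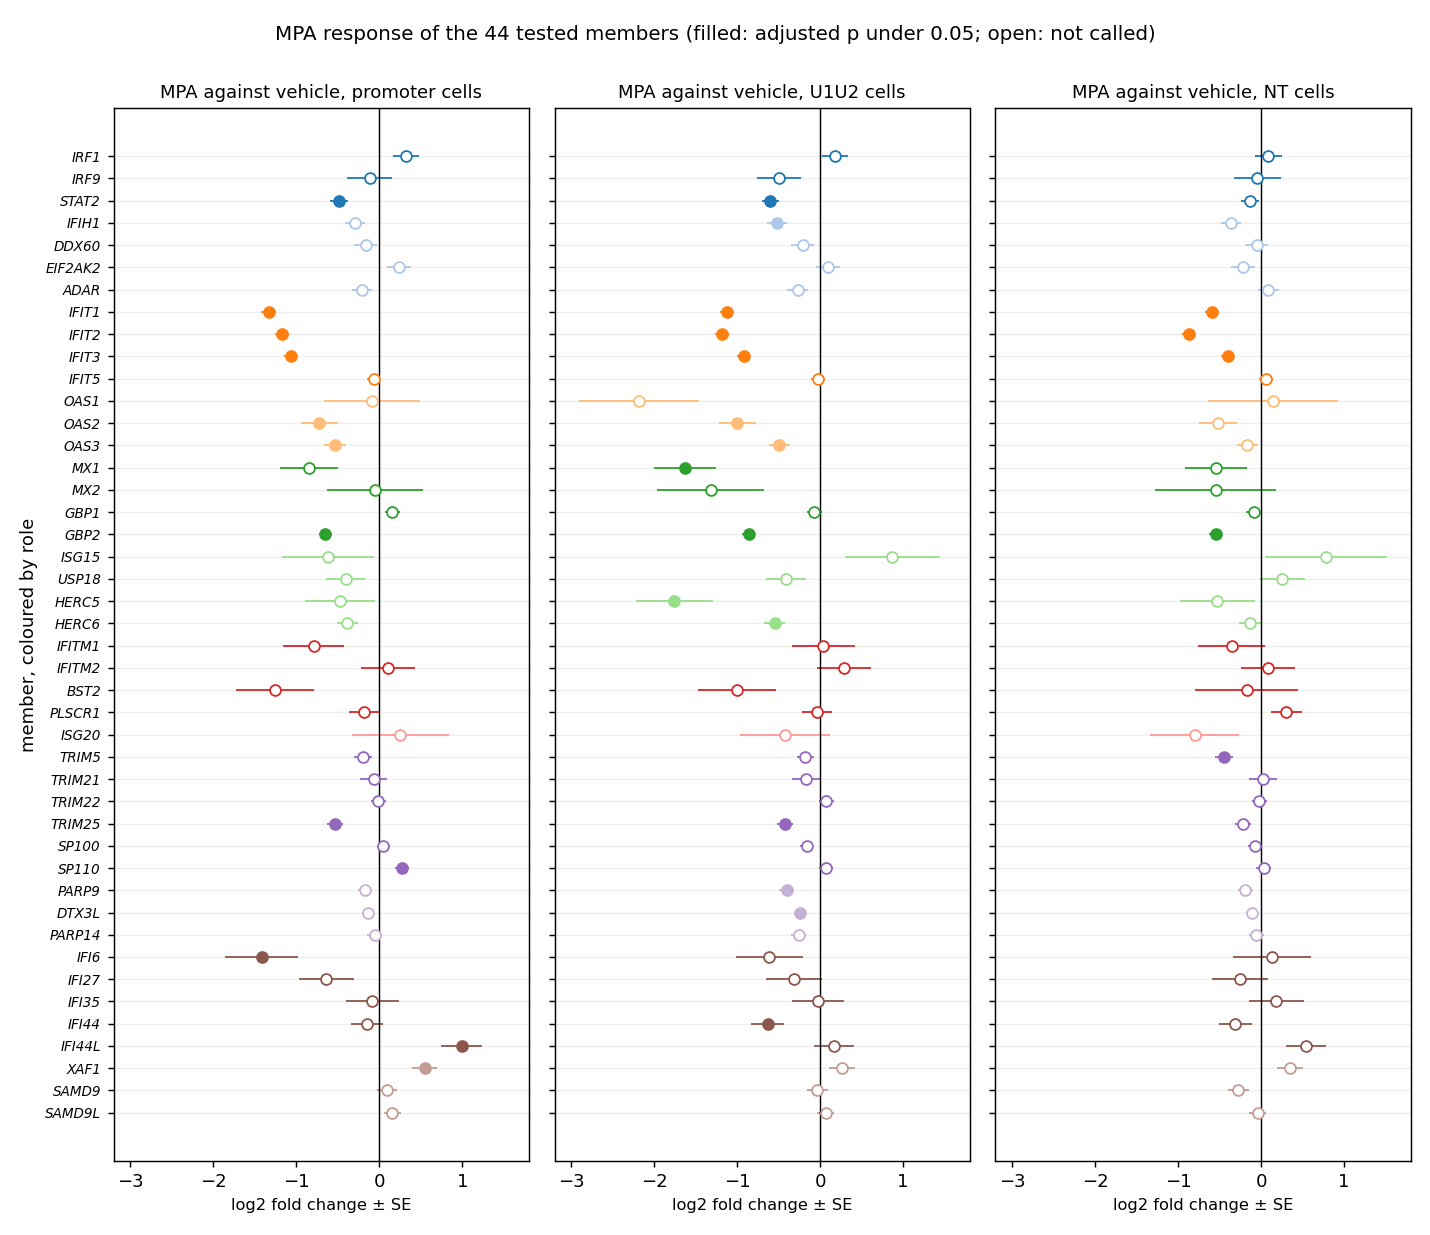
Log2 fold change of MPA over vehicle (horizontal axis, bars ± SE) for the 44 tested members, ordered and coloured by role, in promoter, U1U2 and NT cells from left to right. Filled points had an adjusted p under 0.05, and IFIT1, IFIT2, IFIT3 and GBP2 are filled on the lower side in all 3 panels while IFIT5 lies near 0.

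The IFIT genes encode proteins with tetratricopeptide repeats that bind viral or foreign RNA and hinder its translation, and they form a cluster on chromosome 10 between positions 89283694 and 89421001 (GRCh38, GENCODE 29). IFIT1, which recognises RNA caps that lack a methyl group, had 66.7, 55.1 and 56.4 CPM in MPA-treated promoter cells against 147, 153 and 149 CPM in vehicle-treated ones. In U1U2 cells IFIT1 had 73.8, 70.1 and 69.8 CPM with MPA against 147, 174 and 145 CPM with vehicle. In NT cells it had 90.3, 97.6 and 94.5 CPM with MPA against 136, 139 and 149 CPM with vehicle. All MPA-treated libraries of a line lay below all its vehicle-treated ones, and the vehicle levels of the 3 lines overlapped. The log2 fold change of IFIT1 was -1.33 ± 0.09 in promoter cells (± SE here and below, edgeR adjusted p = 3.92e-09), which is 0.397 of the vehicle level. It was -1.12 ± 0.09 in U1U2 cells (edgeR adjusted p = 3.77e-08), 0.459 of the vehicle level, and -0.59 ± 0.09 in NT cells (edgeR adjusted p = 0.000183), 0.665 of the vehicle level.

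IFIT2, a partner of IFIT1 and IFIT3 in RNA-binding complexes, fell to nearly the same level in the 3 lines. It had 60.2, 59.4 and 59.6 CPM in MPA-treated promoter cells against 129, 144 and 131 CPM in vehicle-treated ones. In U1U2 cells it had 54.2, 62.4 and 58.8 CPM with MPA against 126, 145 and 128 CPM with vehicle. In NT cells it had 58.7, 64.9 and 62.3 CPM with MPA against 103, 115 and 122 CPM with vehicle. The treatments did not overlap in any line, while the MPA-treated libraries of the 3 lines overlapped one another. The log2 fold changes were -1.17 ± 0.08 in promoter cells, -1.18 ± 0.08 in U1U2 cells and -0.87 ± 0.08 in NT cells (edgeR adjusted p = 1.19e-08, 1.43e-08 and 1.67e-06 in that order).

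IFIT3, which stabilises IFIT1, had 105, 90.8 and 95.9 CPM in MPA-treated promoter cells against 198, 215 and 198 CPM in vehicle-treated ones. In U1U2 cells it had 112, 103 and 101 CPM with MPA against 193, 219 and 186 CPM with vehicle, and in NT cells 122, 127 and 127 CPM against 159, 168 and 169 CPM. The promoter and U1U2 libraries lay above the NT libraries in vehicle and below them in MPA. The log2 fold change was -1.07 ± 0.08 in promoter cells, -0.92 ± 0.08 in U1U2 cells and -0.40 ± 0.08 in NT cells (edgeR adjusted p = 1.99e-08, 1.69e-07 and 0.00334 in that order). The calls of IFIT1, IFIT2 and IFIT3 with MPA held in all 11 alternative fits of each line.

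IFIT5, the cluster member best known for binding RNA with a 5′ triphosphate, lay between 108 and 135 CPM in all 18 libraries. Its log2 fold change was -0.07 ± 0.08 in promoter cells, -0.02 ± 0.08 in U1U2 cells and 0.06 ± 0.08 in NT cells, called in no line. Its neighbours in the cluster and IFIT5 thus differed in what was called, although the difference between genes was not tested. LIPA, which encodes a lysosomal lipase and overlaps IFIT1, IFIT2 and IFIT3 on the opposite strand, was looked at after these values were seen. Its log2 fold change was -0.58 ± 0.11 in promoter cells (edgeR adjusted p = 0.000853), -0.26 ± 0.11 in U1U2 cells (edgeR adjusted p = 0.148) and -0.14 ± 0.11 in NT cells (edgeR adjusted p = 0.552). The kit marks strand, the strand setting of the counting is not given in the sources used here, and the part of shared reads in the IFIT values was not tested.

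**Figure D2:**
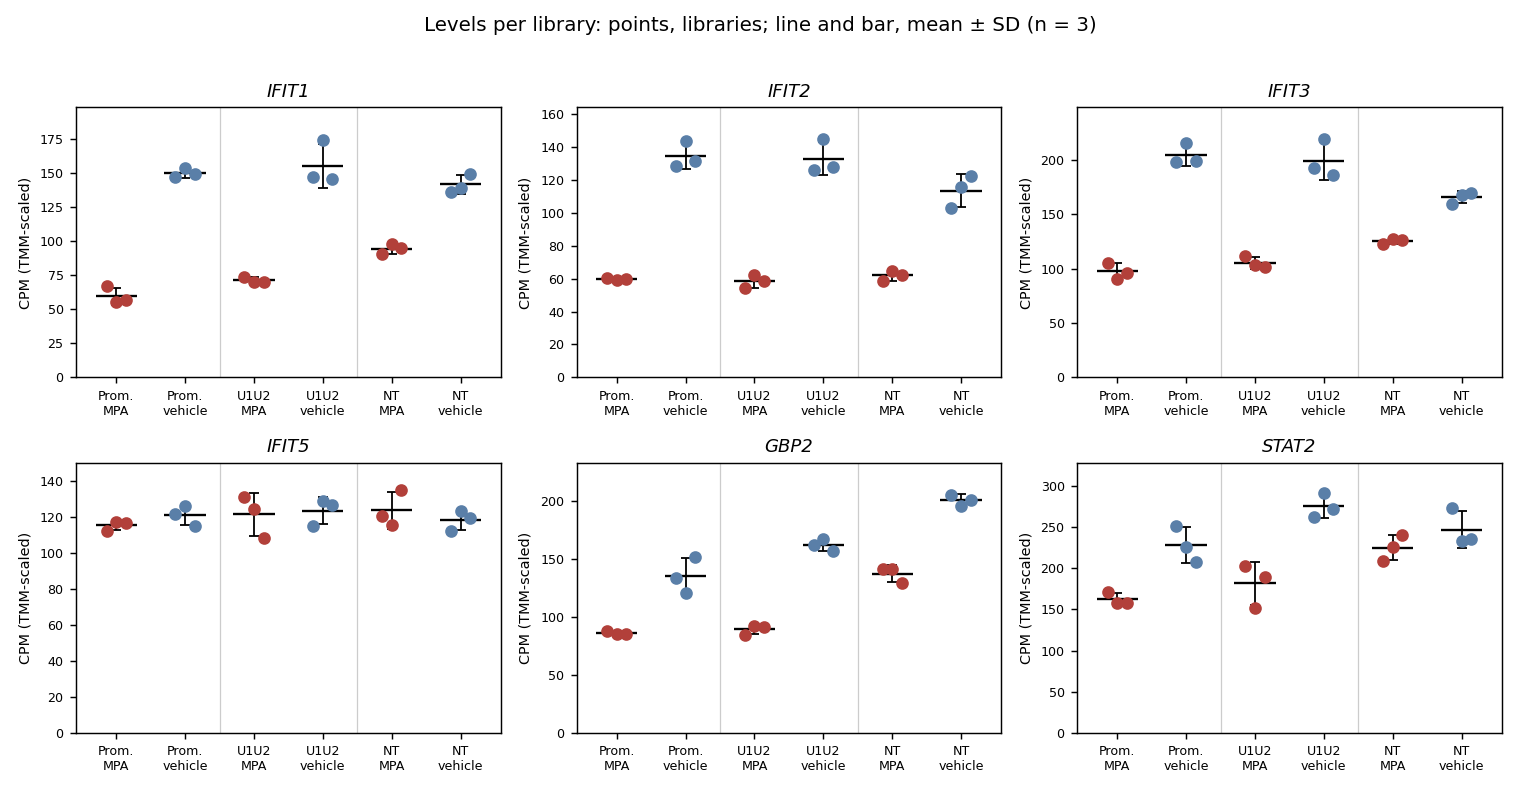
Levels in CPM (vertical axes, from 0) in each library of the 6 groups for IFIT1, IFIT2, IFIT3, IFIT5, GBP2 and STAT2, with the mean ± SD of 3 libraries. The MPA-treated libraries of IFIT1, IFIT2, IFIT3 and GBP2 lie below the vehicle-treated ones in each line, and IFIT5 stays between 108 and 135 CPM throughout.

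Among the antiviral GTPases, GBP2 fell with MPA in all 3 lines and GBP1, its neighbour on chromosome 1, was called in none. GBP2, a guanylate-binding protein that responds to both interferon types, had 87.8, 85.6 and 85.1 CPM in MPA-treated promoter cells against 133, 121 and 152 CPM in vehicle-treated ones. In U1U2 cells it had 84.2, 91.8 and 91.6 CPM with MPA against 162, 167 and 157 CPM with vehicle. In NT cells it had 141, 142 and 129 CPM with MPA against 205, 195 and 201 CPM with vehicle. NT cells held the most GBP2 in both conditions, and no MPA-treated library reached a vehicle-treated one of its line. The log2 fold change was -0.65 ± 0.08 in promoter cells, -0.86 ± 0.08 in U1U2 cells and -0.55 ± 0.08 in NT cells (edgeR adjusted p = 9.85e-06, 4.27e-07 and 0.000177 in that order), and the calls held in all 11 alternative fits of each line. GBP1 had log2 fold changes of 0.16 ± 0.09, -0.07 ± 0.09 and -0.08 ± 0.09 in promoter, U1U2 and NT cells.

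MX1, which blocks the entry of viral nucleocapsids, had 3.09, 3.21 and 2.35 CPM in MPA-treated U1U2 cells against 12.3, 9.71 and 4.76 CPM in vehicle-treated ones. The groups did not overlap, and the vehicle libraries were themselves far apart. In U1U2 cells its log2 fold change was -1.63 ± 0.37 (edgeR adjusted p = 0.00608), a call that held in all 11 alternative fits, and -0.54 ± 0.37 in NT cells, not called. MX2, a related GTPase, was called in no line in the main fit, and was called lower in U1U2 cells with no count filter.

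Of the regulators, STAT2 fell in both engineered lines, while IRF1 and IRF9 were called in none and IRF7 was too low to test. STAT2 had 203, 152 and 190 CPM in MPA-treated U1U2 cells against 262, 292 and 272 CPM in vehicle-treated ones. In promoter cells it had 172, 158 and 158 CPM with MPA against 251, 226 and 207 CPM with vehicle. In NT cells it had 209, 226 and 240 CPM with MPA against 273, 233 and 236 CPM with vehicle, and there the groups overlapped. The log2 fold change of STAT2 was -0.60 ± 0.10 in U1U2 cells (edgeR adjusted p = 0.0006) and -0.49 ± 0.10 in promoter cells (edgeR adjusted p = 0.00308). In NT cells it was -0.13 ± 0.10 (edgeR adjusted p = 0.572). IRF9, the DNA-contacting subunit of ISGF3, lay at 1.35 to 3.41 CPM in all libraries and had log2 fold changes of -0.50 ± 0.27, -0.11 ± 0.27 and -0.05 ± 0.28 in U1U2, promoter and NT cells. IRF1, a transcription factor induced by interferon gamma as well, had 14.9, 13.3 and 14.3 CPM in MPA-treated promoter cells against 10.9, 10.5 and 12.5 CPM in vehicle-treated ones. These libraries did not overlap, but the change was not called (0.32 ± 0.16, edgeR adjusted p = 0.205).

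The OAS genes encode enzymes that sense double-stranded RNA and make the messenger that activates RNase L. OAS2 had 8.11, 5.93 and 5.39 CPM in MPA-treated U1U2 cells against 13.4, 15.4 and 9.91 CPM in vehicle-treated ones. In promoter cells it had 11.4, 5.40 and 7.68 CPM with MPA against 14.6, 13.2 and 12.5 CPM with vehicle, and in NT cells 7.40, 7.84 and 8.74 CPM against 12.8, 11.1 and 10.5 CPM. The treatments did not overlap in any of the 3 lines. The log2 fold change of OAS2 was -0.998 ± 0.22 in U1U2 cells (edgeR adjusted p = 0.00525) and -0.72 ± 0.22 in promoter cells (edgeR adjusted p = 0.0323), where the call was lost without any 1 of 4 libraries. In NT cells it was -0.52 ± 0.23 (edgeR adjusted p = 0.246). OAS3, the largest enzyme of the family, had log2 fold changes of -0.53 ± 0.13 in promoter cells (edgeR adjusted p = 0.00782) and -0.49 ± 0.13 in U1U2 cells (edgeR adjusted p = 0.017). The U1U2 call of OAS3 was lost without vehicle replicate 1 or MPA replicate 2 of that line, and when its groups were fitted alone. OAS1, a low-count gene, had 0.281, 0.0453 and 0.102 CPM in MPA-treated U1U2 cells against 0.645, 0.906 and 0.384 CPM in vehicle-treated ones, with no overlap. Its log2 fold change there was -2.18 ± 0.72 (edgeR adjusted p = 0.0585), not called. OAS1 was called lower by DESeq2, with no count filter, and without vehicle replicate 3 or MPA replicate 1, and its adjusted p ran from 0.000243 to 0.239 over 10 alternative fits. In promoter and NT cells OAS1 had -0.09 ± 0.57 and 0.14 ± 0.78.

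Among the RNA sensors and RNA-binding effectors, IFIH1, the cytoplasmic sensor MDA5, fell in U1U2 cells. It had 11.2, 12 and 11.2 CPM with MPA against 16.7, 17.5 and 15.4 CPM with vehicle, a log2 fold change of -0.53 ± 0.12 (edgeR adjusted p = 0.00651). In promoter and NT cells IFIH1 had log2 fold changes of -0.29 ± 0.12 and -0.36 ± 0.12, not called. Without vehicle replicate 1 of NT cells it was called lower in that line. DDX60, a helicase, EIF2AK2, the kinase PKR that halts translation, and ADAR, which edits double-stranded RNA, were called in no line.

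Of the ISG15 system, the ligase HERC5 and its relative HERC6 fell in U1U2 cells, and ISG15 and its protease USP18 were called in no line. HERC5 had 0.141, 0.181 and 0.239 CPM in MPA-treated U1U2 cells against 0.691, 0.812 and 0.479 CPM in vehicle-treated ones, a log2 fold change of -1.76 ± 0.46 (edgeR adjusted p = 0.017). HERC5 is a low-count gene and its call was lost without vehicle replicate 2, MPA replicate 1 or MPA replicate 2. HERC6 had a log2 fold change of -0.55 ± 0.13 (edgeR adjusted p = 0.00813) in U1U2 cells and -0.38 ± 0.13 (edgeR adjusted p = 0.0547) in promoter cells, and its U1U2 call was lost when those groups were fitted alone. None of the tested membrane effectors, which are IFITM1, IFITM2, the tethering protein BST2 and the scramblase PLSCR1, was called in any line, nor was the exonuclease ISG20. At an unadjusted p under 0.05 these families held 1 membrane effector in U1U2 cells and 2 in promoter cells, and DESeq2 called none of them. With no count filter, IFITM1 was called lower in promoter cells. BST2, at 0.226, 0.190 and 0.181 CPM in MPA-treated promoter cells against 0.471, 0.188 and 0.668 CPM in vehicle-treated ones, had a log2 fold change of -1.26 ± 0.47 (edgeR adjusted p = 0.0863), and was called without vehicle replicate 2.

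TRIM25, a ubiquitin ligase that activates the sensor RIG-I, had 80.7, 74.0 and 71.4 CPM in MPA-treated promoter cells against 115, 112 and 101 CPM in vehicle-treated ones. In U1U2 cells it had 83.8, 68.3 and 76.9 CPM with MPA against 94.9, 112 and 99.8 CPM with vehicle. The log2 fold changes were -0.53 ± 0.10 in promoter cells (edgeR adjusted p = 0.000648) and -0.42 ± 0.10 in U1U2 cells (edgeR adjusted p = 0.00594), and both calls held in all 11 alternative fits. In NT cells TRIM25 had -0.22 ± 0.10, not called. TRIM5, which recognises retroviral capsids, fell in NT cells, with 62.7, 58.9 and 49.9 CPM in MPA against 77.8, 77.4 and 78.7 CPM in vehicle (-0.45 ± 0.11, edgeR adjusted p = 0.0132). That call was lost without MPA replicate 3 and when the NT groups were fitted alone, at a highest adjusted p of 0.0853 over the alternatives. TRIM21, TRIM22 and the nuclear body protein SP100 were called in no line.

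PARP9 and DTX3L, which act together as an ADP-ribosylating ubiquitin ligase and are transcribed from a shared region of chromosome 3, both fell in U1U2 cells. PARP9 had 50.5, 48.8 and 48.9 CPM with MPA against 71.6, 67.1 and 57.3 CPM with vehicle (-0.40 ± 0.09, edgeR adjusted p = 0.00452), a call lost when those groups were fitted alone. DTX3L had 85.6, 81.2 and 77.3 CPM with MPA against 102, 94.3 and 92.8 CPM with vehicle (-0.24 ± 0.07, edgeR adjusted p = 0.0279), a call lost in 8 of 11 alternative fits. PARP14, a further ADP-ribosyltransferase of the locus, had -0.26 ± 0.09 (edgeR adjusted p = 0.0774). IFI44 had 5.72, 5.61 and 5.28 CPM in MPA-treated U1U2 cells against 10.8, 7.84 and 7.16 CPM in vehicle-treated ones (-0.63 ± 0.20, edgeR adjusted p = 0.0467), and this call was lost in 7 of 11 alternative fits. SAMD9 and SAMD9L, restriction factors for poxviruses, were called in no line in the main fit. Without vehicle replicate 1 of NT cells, SAMD9 was called lower in that line.

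A few members went the other way, and were called higher in promoter cells only. IFI44L, a neighbour of IFI44 on chromosome 1, had 6.21, 3.88 and 4.15 CPM in MPA-treated promoter cells against 2.29, 1.57 and 3.09 CPM in vehicle-treated ones (0.99 ± 0.25, edgeR adjusted p = 0.00982). XAF1, a pro-apoptotic binder of the inhibitor XIAP, had 10.3, 9.24 and 9.48 CPM with MPA against 7.07, 6.21 and 6.51 CPM with vehicle (0.55 ± 0.15, edgeR adjusted p = 0.0202). SP110, a nuclear body protein, had 32.6, 29.7 and 31.3 CPM against 26.1, 24.1 and 27.2 CPM (0.27 ± 0.09, edgeR adjusted p = 0.0407). For each of the 3, the MPA-treated libraries lay above all vehicle-treated ones. The SP110 call was lost in 8 of 11 alternative fits and the XAF1 call in 3. IFI44L also stood higher in NT cells, at 7.49, 6.58 and 5.23 CPM with MPA against 4.27, 4.29 and 4.78 CPM with vehicle. XAF1 did too, at 9.14, 9.42 and 7.43 against 7.03, 6.24 and 7.27 CPM. Neither was called there, and edgeR called no difference of responses between promoter and NT cells for either. The treatments overlapped for SP110 in NT cells and for all 3 genes in U1U2 cells. IFI6, an inhibitor of apoptosis and viral replication, fell in promoter cells with 0.904, 0.571 and 0.135 CPM against 1.92, 1.51 and 1.06 CPM (-1.42 ± 0.43, edgeR adjusted p = 0.0337), and this call was lost in 5 of 11 alternative fits. IFI27 and IFI35 were called in no line.

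Some libraries stood apart from their group on these genes. Replicate 1 of MPA-treated promoter cells held the highest value of its group for 35 of the 44 members (79.5%), where it held the highest for 40.8% of all tested genes. Its MX1 level was 9.68 CPM, against 3.92 and 3.79 CPM in the other libraries of the group, and its HERC5 level was 0.716 CPM against 0.114 and 0.271. Without it, 11 members were called in promoter cells, all lower, and the share of all genes called in that fit was not computed. The median log2 fold change was then -0.29 over the members and -0.02 over all genes. MX1 was then called (-1.43 ± 0.33, edgeR adjusted p = 0.00777), where with all libraries it had -0.84 ± 0.35 (edgeR adjusted p = 0.122). HERC5 was called as well (-1.44 ± 0.42, edgeR adjusted p = 0.033), where with all libraries it had -0.47 ± 0.42 (edgeR adjusted p = 0.52). The calls of IFI44L (0.75 ± 0.25, edgeR adjusted p = 0.0704), XAF1 (0.51 ± 0.17, edgeR adjusted p = 0.0725) and SP110 (0.24 ± 0.10, edgeR adjusted p = 0.14) were lost, so no upward call remained. OAS2 stood at -1.04 ± 0.21 without it and IFI6 at -1.997 ± 0.50. Replicate 2 of MPA-treated promoter cells held the highest value for 4.55% of members and 30% of all genes. In vehicle-treated U1U2 cells, replicate 2 held the highest value for 26 members (59.1%, against 35.7% of all genes). Replicate 3 there held it for 1 member (2.27%, against 22.6% of all genes). The line had 12 members called without replicate 2 and 15 without replicate 3.

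**Figure D3:**
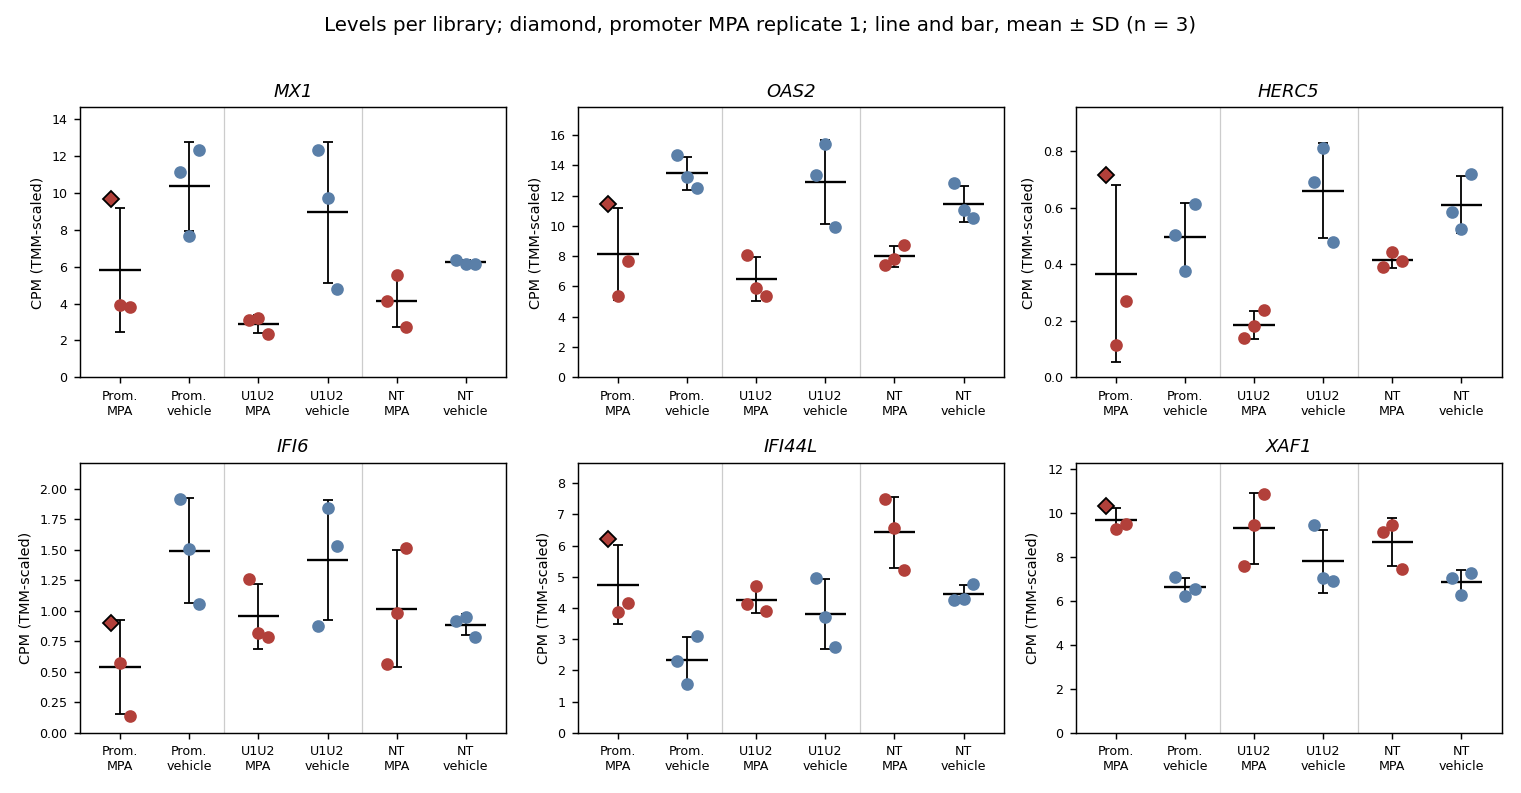
Levels in CPM (vertical axes, from 0) per library for MX1, OAS2, HERC5, IFI6, IFI44L and XAF1, with the mean ± SD of 3 libraries and a diamond for replicate 1 of MPA-treated promoter cells. The diamond is the highest of its group in all 6 panels, at 9.68 CPM for MX1 where the others have 3.92 and 3.79.

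**Figure D4:**
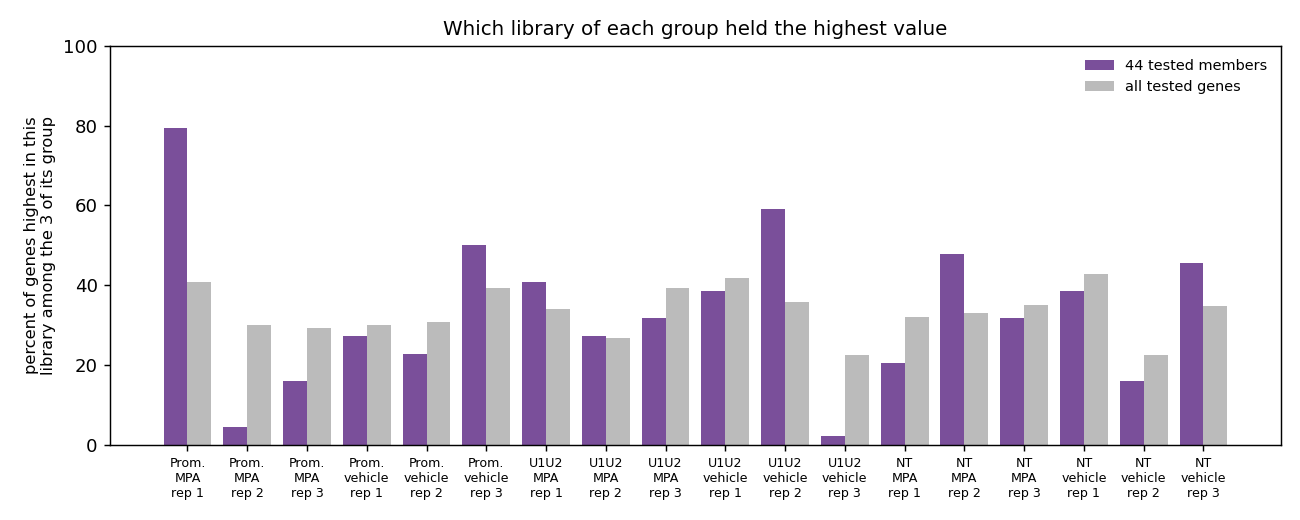
Percent of genes (vertical axis) for which each of the 18 libraries (horizontal axis) held the highest value of its group of 3, for the 44 tested members and for all tested genes. Replicate 1 of MPA-treated promoter cells reaches 79.5% for members and 40.8% for all genes.

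In vehicle, 3 of 44 members (6.82%) differed between promoter and NT cells, where 6.75% of all genes did. GBP2 was lower, at 133, 121 and 152 CPM in promoter cells against 205, 195 and 201 CPM in NT cells (-0.57 ± 0.08, edgeR adjusted p = 0.00036), and held in all 11 alternative fits. IFI44L was lower, at 2.29, 1.57 and 3.09 CPM against 4.27, 4.29 and 4.78 CPM (-0.89 ± 0.26, edgeR adjusted p = 0.0437), and IFIT3 was higher, at 198, 215 and 198 CPM against 159, 168 and 169 CPM (0.30 ± 0.08, edgeR adjusted p = 0.0261). Both of these calls were lost in 7 of 11 alternative fits, among them the fits without any 1 of the 3 NT libraries or without promoter replicate 1 or 2. Between U1U2 and NT cells in vehicle edgeR called 0 members (1.14% of all genes), with 6 at an unadjusted p under 0.05 (16.2% of all genes) and 3 called by DESeq2 (3.52% of all genes), which were IFIT3 higher and GBP2 and TRIM5 lower. Between promoter and U1U2 cells in vehicle edgeR called 0 members (0.784% of all genes), with 3 at an unadjusted p under 0.05 (8.67%) and 1, GBP2, called lower by DESeq2, which called 1.85% of all genes.

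In MPA, 4 members were lower in promoter than in NT cells, where 2.37% of all genes were lower. They were GBP2 (-0.67 ± 0.08, edgeR adjusted p = 2.58e-05), IFIT1 (-0.66 ± 0.09, edgeR adjusted p = 7.1e-05), STAT2 (-0.47 ± 0.10, edgeR adjusted p = 0.0124) and IFIT3 (-0.36 ± 0.08, edgeR adjusted p = 0.0101). IFIT1 stood at 66.7, 55.1 and 56.4 CPM in promoter cells against 90.3, 97.6 and 94.5 CPM in NT cells, with no overlap. The STAT2 call was lost without NT replicate 3, promoter replicate 2 or promoter replicate 3, and the IFIT3 call without NT replicate 2, without those same promoter libraries or with no count filter. Between U1U2 and NT cells in MPA 2 members were lower (0.938% of all genes), GBP2 (-0.62 ± 0.08, edgeR adjusted p = 0.000164) and IFIT1 (-0.40 ± 0.09, edgeR adjusted p = 0.0167), the IFIT1 call lost without any 1 of the NT libraries, without U1U2 replicate 2 or 3, with no count filter, or when those groups were fitted alone. Between promoter and U1U2 cells in MPA edgeR called 0 members (0.328% of all genes), with 5 at an unadjusted p under 0.05 (4.23%) and 0 called by DESeq2, which called 0.588% of all genes. Against NT cells, edgeR thus called GBP2 lower in promoter cells under both conditions and in U1U2 cells under MPA. In vehicle-treated U1U2 cells it had 162, 167 and 157 CPM against 205, 195 and 201 CPM in NT cells, with no overlap. That difference was not called by edgeR (-0.31, edgeR adjusted p = 0.0659) but was called by DESeq2.

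**Figure D5:**
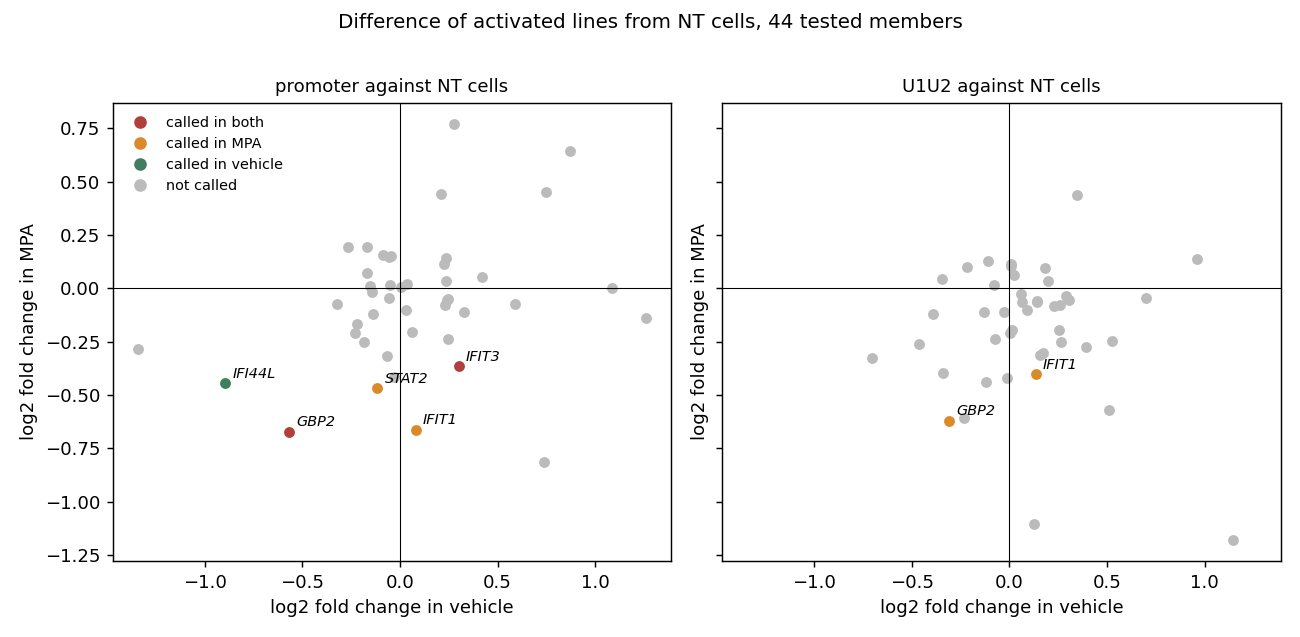
Log2 fold change of promoter over NT cells (left) and of U1U2 over NT cells (right) for the 44 tested members, in vehicle on the horizontal axis and in MPA on the vertical axis. GBP2 lies lower in both conditions in the left panel, at -0.57 in vehicle and -0.67 in MPA, and IFIT3 lies at 0.30 in vehicle and -0.36 in MPA.

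The difference between the MPA responses was itself tested. IFIT1 and IFIT3 fell further in promoter than in NT cells: the log2 response of IFIT1 was lower by -0.75 ± 0.12 (edgeR adjusted p = 0.00293) and that of IFIT3 by -0.67 ± 0.11 (edgeR adjusted p = 0.00402), and both calls held in all 17 alternative fits. These were the 2 members called lower, where 0.752% of all genes were. IFIT2 and GBP2 fell in both lines and edgeR called no difference between the lines for either. All 4 IFIT members had a negative difference in that comparison, 3 of them at an unadjusted edgeR p under 0.05 (14.8% of all genes). Between U1U2 and NT cells edgeR called 0 members (0.219% of all genes), with 7 at an unadjusted p under 0.05 (10.0% of all genes) and 2, IFIT1 and IFIT3, called by DESeq2, which called 0.958% of all genes. In edgeR, IFIT1 had -0.54 ± 0.12 (edgeR adjusted p = 0.089) and IFIT3 -0.52 ± 0.11 (edgeR adjusted p = 0.0643) in that comparison. Between promoter and U1U2 cells edgeR called 0 members (0.0129% of all genes), with 2 at an unadjusted p under 0.05 (5.17%) and 0 called by DESeq2, which called 0.474% of all genes. STAT2, OAS2, OAS3 and TRIM25, called with MPA in both engineered lines and not in NT cells, are therefore not shown to respond differently. All comparisons with NT cells share the same NT libraries.

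The genes upstream and downstream of the members were read from lists. Of all tested genes, 15.0% were called with MPA in promoter cells, 11.7% in U1U2 cells and 5.93% in NT cells. Of 10 interferon genes, none had enough counts to test: IFNE, an interferon of reproductive epithelium, had 2 to 15 counts per library, IFNB1 0 to 1 and IFNA1 0 to 2. Of 8 tested receptor and JAK kinase genes, 1 was called in each engineered line (12.5%, about the share of all genes). It was JAK2, the kinase of the interferon gamma receptor, which rose by 0.81 ± 0.14 in promoter cells (edgeR adjusted p = 0.000362) and by 0.63 ± 0.14 in U1U2 cells (edgeR adjusted p = 0.00409). Of 16 tested sensor and induction genes, 2 were called in U1U2 cells (12.5%), 1 in promoter cells (6.25%) and 2 in NT cells (12.5%). TLR4, the receptor for lipopolysaccharide, rose in U1U2 (0.38 ± 0.10) and NT cells (0.43 ± 0.10). The DNA sensor IFI16 fell in U1U2 cells (-0.27 ± 0.08), the adaptor TRAF3 in promoter cells (-0.24 ± 0.08) and the nucleotide hydrolase SAMHD1 in NT cells (-0.28 ± 0.07). Of 7 tested IRF and STAT factors outside the members, 2 fell in promoter cells (28.6%), 1 in U1U2 cells (14.3%) and 0 in NT cells. Over all genes, 8.40%, 6.22% and 3.48% fell in that order. None of the 7 was called higher with MPA in any line. In NT cells 5 of them had a positive log2 fold change, up to 1.24, and 2 a negative one. In promoter cells and in U1U2 cells 2 were positive and 5 negative.

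Of 11 tested feedback genes and inhibitors, 3 fell in promoter cells (27.3%), 1 in U1U2 cells (9.09%) and 1 in NT cells (9.09%). Over all genes, 8.40%, 6.22% and 3.48% fell in that order. SOCS1, which blocks JAK kinases and is itself induced by interferon, fell in promoter (-0.89 ± 0.24, edgeR adjusted p = 0.0144) and U1U2 cells (-0.90 ± 0.23, edgeR adjusted p = 0.0147). SOCS3, a related inhibitor of cytokine receptors, fell in promoter cells (-1.28 ± 0.31, edgeR adjusted p = 0.00775). IRF2BP2, a corepressor that binds IRF2, fell in promoter (-0.39 ± 0.09) and NT cells (-0.50 ± 0.09).

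A further 55 interferon-responsive genes outside the 49, of which 51 were tested, did not share a direction. In promoter cells 4 fell (7.84%) and 5 rose (9.8%), against 8.40% and 6.63% of all genes. In U1U2 cells 5 fell (9.8%) and 4 rose (7.84%), against 6.22% and 5.44%. In NT cells 3 fell (5.88%) and 2 rose (3.92%), against 3.48% and 2.44%. GBP4, a guanylate-binding protein of the same gene cluster as GBP2, fell in all 3 lines, by log2 fold changes of -1.05 ± 0.08 in promoter, -0.83 ± 0.08 in U1U2 and -0.60 ± 0.08 in NT cells. CASP1, the protease that matures interleukin-1 beta, fell likewise (-0.99 ± 0.11, -0.99 ± 0.11 and -0.43 ± 0.11 in the same order), as did TENT5A, a poly(A) polymerase (-0.54 ± 0.10, -0.83 ± 0.10 and -0.86 ± 0.10). TXNIP, an inhibitor of thioredoxin, rose in all 3 lines (1.48 ± 0.15, 0.97 ± 0.14 and 0.52 ± 0.14), and so did EPSTI1, first named for its response to epithelial-stromal contact (0.72 ± 0.09, 0.58 ± 0.09 and 0.46 ± 0.10). The medians of the 51 were -0.07 in promoter, -0.08 in U1U2 and 0.09 in NT cells.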

How the data were processed

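Messenger RNA of 18 libraries was measured by sequencing. Per the submitters' processing notes, STAR 2.6.0c, edgeR 4.2.2 and R 4.4.1 were used with the build hg38; the counting program, the strand setting and the gene annotation are not given in the sources used here. For each gene the authors deposited whole-number counts, which all tests used, and log2 CPM for 10402 genes, 33 of them members, which entered no test. 0 other value columns were left out. Here, edgeR 4.0.16 in R 4.3.3 was fitted by quasi-likelihood to all 18 libraries, each group having 1 term, with TMM scaling and filterByExpr (minimum count 10). Calls had a Benjamini-Hochberg adjusted p under 0.05 over the 15558 tested genes, in 12 comparisons. Errors are SE, from the F statistic. Library totals were 11932474 to 33418643 counts. Counts differed between replicates of every group by more than sampling noise (chi-square per degree of freedom 1.95 to 34.9). Same-numbered libraries did not deviate together, so no pairing was used. DESeq2 shares are over the genes to which it gave an adjusted p. Alternatives were RLE scaling, DESeq2 1.42.0, no count filter, a replicate block, a fit of the compared groups alone, and leaving out each library.

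The members and lists were chosen with earlier results of these data known. Members are given by role. Values in every library are given for up to 8 members per MPA comparison and 4 per line comparison, with the largest changes among those called without overlap, and for further called members. Sequences are from RefSeq (GRCh38.p14) and positions from GENCODE 29.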

Additional observations from a re-analysis of the deposited data

Results flagged for a closer look

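Among the members, 2 responses to MPA differed between lines by a test of the difference itself. The log2 response of IFIT1 was lower in promoter than in NT cells by -0.75 ± 0.12 (SE, edgeR adjusted p = 0.00293), with responses of -1.33 in promoter cells and -0.59 in NT cells. That of IFIT3 was lower by -0.67 ± 0.11 (edgeR adjusted p = 0.00402), with responses of -1.07 in promoter cells and -0.40 in NT cells. In both genes each of the 3 MPA-treated libraries lay below the 3 vehicle-treated ones in either line.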

How the results depend on the processing

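The counts of members called with MPA ranged over 11 to 15 in U1U2 cells, 9 to 12 in promoter cells and 4 to 7 in NT cells when each library was left out in turn. Apart from the DESeq2 shares given above, shares of all genes called were not computed for the alternative fits. The counts here therefore show only how far the calls depend on the processing. With 1 library left out, promoter against NT cells gave 1 to 4 members in vehicle and 2 to 4 in MPA. U1U2 against NT cells gave 0 to 1 in vehicle and 1 to 2 in MPA. The difference of responses between promoter and NT cells kept 2, and the remaining 4 comparisons kept 0. DESeq2 called 3 members for U1U2 against NT cells in vehicle, 5 for promoter against NT cells in vehicle, 1 for promoter against U1U2 cells in vehicle, and 2 for the difference of responses between U1U2 and NT cells. Without a count filter these were 1, 5, 0 and 2, and U1U2 against NT cells and promoter against U1U2 cells in MPA had 1 each. Fitting the compared groups alone gave 10 members with MPA in U1U2 cells (OAS3, HERC6, PARP9, DTX3L and IFI44 were lost), 12 in promoter cells and 4 in NT cells, with 1 member for promoter against NT cells in vehicle and 1 for U1U2 against NT cells in MPA. RLE scaling changed no count. Direction was compared across fits only for members called or close to a call in the main fit, and none of these reversed. Medians over all tested members did change sign in some fits. Without MPA replicate 2 of promoter cells, the median for promoter against NT cells in MPA went from -0.0535 to 0.0197. That of the difference of responses between these lines went from -0.0987 to 0.0154. Same-numbered libraries share only a number (correlations of deviations -0.470 to 0.205, and 0 of 18 libraries correlated best with their own number). With the replicate block, MPA gave 13 calls in U1U2 and 10 in promoter cells, with 1 for promoter against NT cells in vehicle, and the counts of the other comparisons as without it. Members at about 1 CPM or less, such as HERC5, OAS1, MX2 and ISG15, carried SE of 0.42 to 0.78 on the log2 scale. In the main fit OAS1 at -2.18 in U1U2 cells and BST2 at -1.26 in promoter cells were not called. HERC5 at -1.76 in U1U2 cells and IFI6 at -1.42 in promoter cells were called, though not in every alternative fit.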
